A study of Mus musculus with 16 samples.

Results

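The genes described here are 8 components of MHC class II antigen presentation: Cd74, H2-Aa, H2-Ab1, H2-Eb1, H2-DMa, H2-DMb1, Ciita and Cd86. They were chosen by name, as the rows of the deposited gene table whose Ensembl identifiers map to these symbols, and all 8 were found among 22468 genes. The samples were whole heart ventricles of neonatal mice, taken above and below the ligature, from which polyadenylated RNA was sequenced. A group of 4 samples came from wild type mice after a sham operation (WT sham), 4 from wild type after surgical myocardial infarction (WT MI), 4 from Chrna7 knockout mice after sham (KO sham) and 4 from knockout mice after infarction (KO MI). The knockout is the Jax #003232 line, in which Chrna7 is disrupted; that gene encodes the alpha 7 subunit of the neuronal acetylcholine receptor. The labels give no strain, age in days, sex, litter or time after surgery, and do not say that each sample is a separate animal, so p-values measure only the spread between these samples.

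MHC class II molecules display peptides from endocytosed proteins to CD4+ T cells. An alpha and a beta chain assemble in the endoplasmic reticulum on the invariant chain CD74, which blocks the groove and guides the complex to endosomes, where proteases trim it and the DM heterodimer exchanges the remaining fragment for peptide. Transcription of the chains, of CD74 and of DM is switched on together by CIITA, a coactivator that binds no DNA itself but docks on RFX and NF-Y factors at the X and Y boxes of these promoters. CD86 is a costimulatory ligand for CD28 and CTLA-4 on T cells. In the heart these genes are known mainly from dendritic cells, B cells and a part of the macrophages.

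The Y box and the core of the X box are shown for the members examined whose promoters hold them, because these boxes are the docking sites named above. The reference promoter windows (RefSeq, GRCm38.p6) were examined for 4 of the 8 members: H2-Aa, H2-Eb1, H2-DMb1 and H2-DMa. Entries were missing for Cd74, H2-Ab1, Ciita and Cd86. In the lines below, each 100 bases long and read 5′ to 3′ on the gene's strand, capitals mark the Y box TGATTGG and, where present upstream of it, the X core GCAAC.
H2-Aa promoter, chr17:34287847-34287946, minus strand: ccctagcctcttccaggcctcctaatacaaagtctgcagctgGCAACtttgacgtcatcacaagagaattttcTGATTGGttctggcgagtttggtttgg
H2-Eb1 promoter, chr17:34305733-34305832, plus strand: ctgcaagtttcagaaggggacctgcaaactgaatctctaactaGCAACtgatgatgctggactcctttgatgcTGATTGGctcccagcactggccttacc
H2-DMb1 promoter, chr17:34153055-34153154, plus strand: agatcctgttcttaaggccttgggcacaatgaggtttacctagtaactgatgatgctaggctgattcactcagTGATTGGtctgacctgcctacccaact
In H2-Aa the Y box began 50 bases before the annotated start of transcription and the X core 31 bases further upstream. H2-Eb1 had its Y box at 61 bases before the start and its X core 30 bases further upstream. H2-DMb1 carried the Y box at 63 bases before the start, without a GCAAC in the window, and the 2 windows listed for H2-DMa held no TGATTGG. Searched on both strands over the 250 bases before each start, TGATTGG was present in 7.23% of 32851 promoter windows and GCAAC in 29.9%. A GCAAC followed 10 to 40 bases later by TGATTGG on the gene's strand was present in 49 windows (0.149%), among them those of H2-Oa and H2-Ob, the subunits of the DM inhibitor DO. These are letter matches only.

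Depth and sample quality set the frame for genes at this level. Gene counts per sample ranged from 10711442 to 17223580, and Cd74 had 61 to 338 reads in a sample, H2-DMb1 5 to 37 and Cd86 5 to 29. The exact Poisson 95% interval of the lowest count, 5 reads, runs from 1.62 to 11.7 and covers counting error only. Chrna7 itself had 0 to 4 reads per sample in all 4 groups, too few to check the genotype labels. Several libraries stood apart. The 10 listed markers of lung epithelium summed to 355 CPM (reads scaled to a common library total) in KO MI replicate 4 and to 48.3 to 66.5 CPM in the other KO MI samples. In WT sham replicate 2 and WT MI replicate 2 they summed to 3.90 and 4.89 CPM. KO MI replicate 4 also had 13345 CPM of the cardiomyocyte gene Myh6, against 30521 to 38780 CPM in the other 15 samples, and 17.3% mitochondrial reads against 9.51 to 13.4%. Haemoglobin genes summed to 2841 to 4612 CPM in WT sham and to 947 to 2024 CPM in the other 12 samples, so they moved with infarction in WT and with genotype after sham. With haemoglobin and mitochondrial genes left out before scaling, the log2 change of Cd74 was 0.88 after infarction in WT and 0.64 between genotypes after sham, against 0.87 and 0.62 with them, and beyond that their part was not tested. Y-linked genes summed to 1.73 to 2.74 CPM in 3 samples (WT sham replicate 1, KO sham replicate 2, KO MI replicate 1) and to 152 to 231 CPM in the other 13. In whole tissue, fewer cells of a type and less RNA per cell cannot be told apart.

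Among the 8 genes, the invariant chain was the most abundant per kilobase of exon and, on average over the 16 samples, the coactivator the least. Per kilobase of exon, which allows levels of different genes to be compared, Cd74 averaged 6.72 ± 2.86 CPM (SD, n = 16), H2-Eb1 3.62 ± 1.52, H2-Ab1 2.35 ± 1.26 and H2-Aa 1.07 ± 0.675. The DM subunits followed at 0.627 ± 0.260 for H2-DMa and 0.554 ± 0.313 for H2-DMb1, then Cd86 at 0.285 ± 0.136 and Ciita at 0.161 ± 0.0418. In WT sham alone Ciita averaged 0.165 and Cd86 0.155. The length is that of all annotated exons of a gene together, 9535 bases for Ciita, so the order depends on it. Without division by length Ciita, at 1.57 CPM in WT sham, lay above H2-DMb1 at 0.736 and Cd86 at 0.569. The order Cd74, H2-Eb1, H2-Ab1, H2-Aa held in 16 of 16 samples. Lower down the neighbours came closer: H2-Aa exceeded H2-DMa in 13 samples, H2-DMa exceeded H2-DMb1 in 11, H2-DMb1 exceeded Cd86 in 15 and Cd86 exceeded Ciita in 13. All 8 genes passed the filter on low counts.

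**Figure D1:**
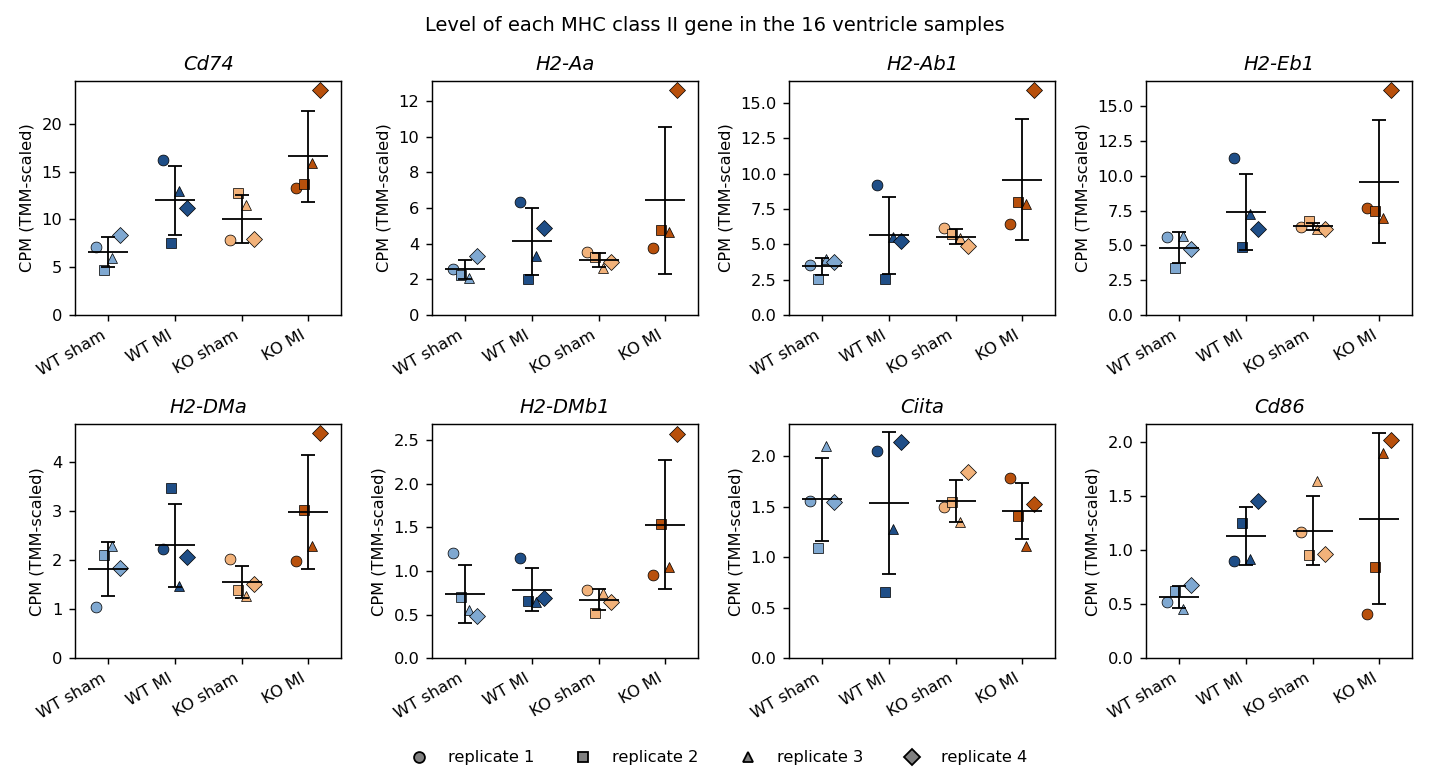
Level of each of the 8 genes as CPM scaled by TMM factors (vertical axis, linear, from 0) in the 4 groups (horizontal axis). Each symbol is 1 sample, its shape the replicate number, and the bar with whiskers is the mean ± SD of 4 samples. For Cd74 the means were 6.55, 11.99, 10.01 and 16.6 CPM from WT sham to KO MI, and KO MI replicate 4 was the highest of the 16 samples in 7 of the 8 panels.

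Cd74, whose product chaperones the class II chains, was measured in WT sham at 7.09, 4.75, 5.94 and 8.41 CPM in replicates 1 to 4 and in WT MI at 16.2, 7.52, 13.0 and 11.2 CPM. In KO sham it was at 7.81, 12.8, 11.5 and 7.94 CPM, and in KO MI at 13.3, 13.7, 15.9 and 23.5 CPM. Within WT, only the infarcted replicate 2 fell inside the sham range, and within KO the 4 infarcted samples all lay above the 4 sham samples. H2-Ab1, the beta chain of the I-A molecule, was at 3.55, 2.57, 3.93 and 3.77 CPM in WT sham and at 9.21, 2.57, 5.49 and 5.24 CPM in WT MI. Its values were 6.12, 5.73, 5.46 and 4.89 CPM in KO sham and 6.44, 7.999, 7.87 and 15.9 CPM in KO MI. For this gene WT MI replicate 2 and WT sham replicate 2 were the lowest of the 16 samples, the KO sham samples all lay above the WT sham samples, and the KO groups did not overlap.

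H2-Aa encodes the alpha chain that pairs with the H2-Ab1 product. Its level was 2.59, 2.26, 2.10 and 3.29 CPM in WT sham, and 6.33, 2.03, 3.30 and 4.89 CPM in WT MI. In KO sham it was 3.51, 3.23, 2.62 and 2.97 CPM, and in KO MI 3.77, 4.77, 4.66 and 12.6 CPM. The KO groups did not overlap, but the margin was narrow outside KO MI replicate 4, which stood at 12.6 CPM. H2-Eb1, the beta chain of the I-E molecule, was at 5.62, 3.35, 5.66 and 4.74 CPM in WT sham and at 11.3, 4.89, 7.23 and 6.18 CPM in WT MI. It was at 6.31, 6.76, 6.20 and 6.17 CPM in KO sham and at 7.67, 7.44, 6.95 and 16.2 CPM in KO MI. The KO groups again did not overlap, and 3 of the 4 KO MI samples lay within 1 CPM of the highest KO sham sample. The partner of H2-Eb1, H2-Ea, was listed at 0 reads in all 16 samples, where 3 reads would be 0.174 to 0.280 CPM; in the annotation used for names its symbol is that of a pseudogene, H2-Ea-ps.

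The first comparison asks how the ventricle of wild type neonates differed after infarction. Cd74 averaged 11.99 CPM in WT MI and 6.55 CPM in WT sham, a fitted ratio of 1.83 (log2 change 0.87 ± 0.25, SE), but no member passed the test. Cd74 had an adjusted p of 0.0785 (edgeR quasi-likelihood test, Benjamini-Hochberg over 13412 genes). The chains H2-Ab1, H2-Aa and H2-Eb1 had log2 changes of 0.69, 0.68 and 0.60, with adjusted p-values of 0.336, 0.428 and 0.319 in the same edgeR test. Cd86 had a log2 change of 0.99 ± 0.44 and an adjusted p of 0.283 in edgeR.

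Of the 8 members 0 were called in WT, where 2.25% of all genes were called. An unadjusted p under 0.05 was found for 3 members, beside 2007 of all 13412 genes. Cd86 was the 1 member whose WT groups did not overlap, where 4.5% of all genes lay higher without overlap. The median log2 change of the members was 0.64, beside -0.01 over all genes. DESeq2 and limma voom each called 1 member, Cd74, with adjusted p-values of 0.0167 and 0.0297. The count of calls turned on WT MI replicate 2, the sample with almost no lung markers. Without it Cd74 was called (log2 change 1.05, edgeR adjusted p 0.0293). With the 3 libraries apart in lung markers left out, 3 members were called in WT: Cd74 at 0.93, H2-Aa at 0.88 and H2-Ab1 at 0.84 on the log2 scale.

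In the knockout, Cd74, H2-Aa and both DM subunits rose after infarction. H2-DMb1, the beta subunit of the peptide exchanger DM, was 2.25-fold higher (log2 change 1.17 ± 0.36, adjusted p 0.0314) and H2-Aa 2.08-fold higher (1.06 ± 0.35, adjusted p 0.0460), by edgeR's quasi-likelihood test. H2-DMa, the alpha subunit of DM, was 1.90-fold higher (0.92 ± 0.31, edgeR adjusted p 0.0438), and Cd74 1.66-fold higher (0.73 ± 0.23, edgeR adjusted p 0.0378). H2-Ab1 and H2-Eb1 had log2 changes of 0.78 ± 0.29 and 0.58 ± 0.26 and did not pass, with edgeR adjusted p-values of 0.0760 and 0.134. Ciita and Cd86 had log2 changes of -0.09 ± 0.31 and 0.13 ± 0.37.

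The 4 calls among 8 members stand beside 8.54% of all genes called higher and 16.6% called in either direction. For 5 members (Cd74, H2-Aa, H2-Ab1, H2-Eb1, H2-DMb1) every KO MI sample lay above every KO sham sample, beside 11.4% of all genes. The members' median log2 change was 0.75, beside 0.01 over all genes.

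These 4 calls were close to the threshold and changed when single libraries were left out. None of the 8 members was called when any 1 of KO sham replicates 3 and 4 and KO MI replicates 2 and 4 was left out. Leaving out KO sham replicate 1 kept H2-DMa alone, and leaving out KO sham replicate 2 kept Cd74 alone. The sizes moved most with KO MI replicate 4, the sample with the high lung markers and low Myh6. Without it the log2 changes were 0.51 for Cd74, 0.50 for H2-Aa, 0.63 for H2-DMa and 0.80 for H2-DMb1, with edgeR adjusted p-values of 0.113 to 0.193. With the 3 libraries apart in lung markers left out, Cd74 remained called (0.52, edgeR adjusted p 0.0246), H2-Aa was at 0.51, H2-DMa at 0.64 and H2-DMb1 at 0.81 with adjusted p-values over the threshold. With a lung marker index as a covariate, 5 members were called. With a B cell marker index as a covariate, none was, and 731 of all genes were called in place of 2220. The log2 changes were then 0.98 for Cd74 (edgeR adjusted p 0.0556), 1.02 for H2-Aa, 0.88 for H2-DMb1 and 0.30 for H2-DMa. The B cell index ran from 0.46 to 0.84 in KO sham and from -0.43 to 0.37 in KO MI, without overlap, so this fit cannot separate it from infarction. Leaving out the 3 libraries low in Y-linked genes left 2 called, H2-DMb1 and Cd74.

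**Figure D2:**
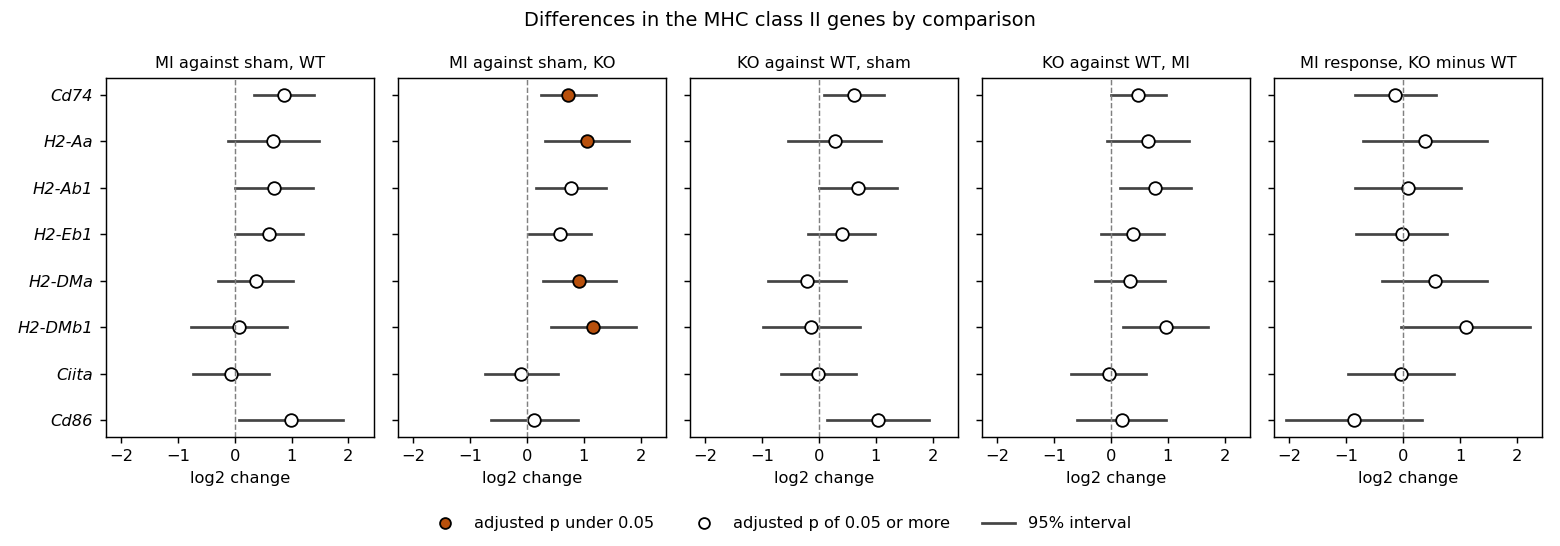
Log2 change of the 8 genes (vertical axis) in 5 comparisons, 1 panel each, with the log2 change on the horizontal axis. Circles are the edgeR estimates, lines their 95% intervals, and filled circles mark an adjusted p under 0.05. Filled circles appear only for Cd74, H2-Aa, H2-DMa and H2-DMb1 in the panel of infarction against sham in KO.

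Averaged over both genotypes, the infarcted ventricles had more RNA of the invariant chain and of the 3 class II chains. Cd74 was 1.74-fold higher (log2 change 0.80 ± 0.17, edgeR adjusted p 0.00518), H2-Aa 1.82-fold (0.87 ± 0.26, edgeR adjusted p 0.0332), H2-Ab1 1.66-fold (0.73 ± 0.22, edgeR adjusted p 0.0346) and H2-Eb1 1.51-fold (0.59 ± 0.19, edgeR adjusted p 0.0472). H2-DMa, at 0.65 ± 0.22, narrowly missed with an edgeR adjusted p of 0.0552. These 4 of 8 members were called higher beside 6.89% of all genes higher and 13.5% in either direction, and their median log2 change was 0.63 beside 0.00 over all genes.

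Cd74 was the steadiest member in this averaged comparison. It was called without any 1 of the 16 libraries, with log2 changes of 0.69 to 0.89. The 3 chains were less steady: 1 member stayed called without WT sham replicate 1 or 2, any 1 of the 4 KO sham replicates, or WT MI replicate 1. Without WT sham replicate 3 or 4, or KO MI replicate 4, 2 were called. Without the 3 libraries apart in lung markers, Cd74, H2-Aa, H2-Ab1 and H2-Eb1 were all called, at 0.73, 0.70, 0.63 and 0.43. Cd74 alone was called without the 3 libraries low in Y-linked genes.

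The comparison of genotypes after sham asks whether the knockout ventricle differed without an infarct. There was no unoperated group, so a genotype difference present before surgery and a different response to the sham operation cannot be told apart. The fitted ratio of KO sham to WT sham was 1.54 for Cd74 (log2 difference 0.62 ± 0.25, edgeR adjusted p 0.0994), 1.62 for H2-Ab1 (0.69 ± 0.33, edgeR adjusted p 0.154) and 2.06 for Cd86 (1.05 ± 0.43, edgeR adjusted p 0.102). None of the 8 members passed the test in a comparison where 15.3% of all genes did. Cd74, H2-Ab1 and Cd86 had an unadjusted p under 0.05, as did 4236 of all 13412 genes. H2-DMa and H2-DMb1 had log2 differences of -0.22 ± 0.33 and -0.14 ± 0.41. For H2-Ab1, H2-Eb1 and Cd86 every KO sham sample lay above every WT sham sample, beside 14% of all genes. The members' median was 0.34, and that of all genes -0.01.

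The call depended on the fit. When the 8 sham samples were fitted alone, Cd74, H2-Ab1 and Cd86 were called (edgeR adjusted p 0.0308, 0.00752 and 0.0321), limma voom called Cd74 (0.0407), and DESeq2 called none. Without the 3 libraries apart in lung markers H2-Ab1 was called at 0.57 (edgeR adjusted p 0.0420). Markers of several leukocytes moved with this comparison. Of 7 tested B cell markers 2 were called higher in KO sham, among them Ighm (log2 change 0.76), and the 10 listed markers summed to 18.3 to 27.9 CPM in WT sham and 33.1 to 35.7 CPM in KO sham. Of 12 macrophage markers Cx3cr1 and Mrc1 were called higher in KO sham (0.97 and 0.43) and Lyve1 lower (-0.73), and the sums did not overlap, at 110 to 123 CPM in WT sham and 143 to 155 CPM in KO sham. Of 8 monocyte markers Ly6c1 (0.61) and Ace (0.39), which endothelial cells also express, were called higher. The part of these markers in the differences of the class II genes was not tested. The defining B cell genes were low but not at 0 (Cd79a 1.11 ± 0.356 CPM in WT sham and 2.21 ± 0.317 in KO sham, SD, n = 4). With the B cell index as a covariate the log2 differences of Cd74 and H2-Ab1 were 0.23 and 0.49, with edgeR adjusted p-values of 0.775 and 0.641. That index ran from -0.80 to -0.18 in WT sham and from 0.46 to 0.84 in KO sham. The sham groups did not overlap in it, so this fit cannot separate B cell markers from genotype.

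After infarction no member differed between the genotypes past the threshold. The fitted ratio of KO MI to WT MI was 1.95 for H2-DMb1 (log2 difference 0.96 ± 0.36) and 1.72 for H2-Ab1 (0.78 ± 0.30), with unadjusted p-values of 0.0138 and 0.0168 and an adjusted p of 0.970 for both in edgeR. Of the 8 members 0 were called, where 0.0149% of all genes were called. The same 2 had an unadjusted p under 0.05, beside 638 of all 13412 genes. DESeq2 and limma voom also called none. Every member overlapped between WT MI and KO MI, beside 1.09% of all genes that lay higher without overlap. The median log2 difference of the members was 0.43, beside 0.00 over all genes.

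The difference was smaller without the libraries that stood apart for the invariant chain, H2-Ab1 and H2-DMb1, and it turned for H2-Aa and H2-Eb1. Without the 3 libraries apart in lung markers, the difference between KO MI and WT MI was 0.16 for H2-Ab1, 0.08 for Cd74, -0.14 for H2-Aa and -0.17 for H2-Eb1. H2-DMb1 went from 0.96 to 0.50, and H2-DMa was at 0.34 with and without them. On that subset H2-Eb1 was at 8.23 ± 2.69 CPM in WT MI and 7.35 ± 0.366 CPM in KO MI (SD, n = 3 each).

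Whether the response to infarction itself differed between genotypes was tested as the interaction, the KO change minus the WT change. None of the 8 members was called by edgeR, DESeq2 or limma voom, in a contrast where 2.74% of all genes were called. None had an unadjusted p under 0.05, beside 2428 of all 13412 genes. For Cd74 the difference was -0.14 with a 95% interval from -0.85 to 0.57, and for H2-Ab1 0.09 with an interval from -0.85 to 1.02. H2-DMb1 had 1.10, with an interval from -0.04 to 2.24, and Cd86 -0.86, from -2.05 to 0.33. So H2-DMb1 passed the test in KO and not in WT, but a difference between the genotypes was not shown for it or for any other member.

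The DM subunits are given next by sample. H2-DMb1 was at 1.21, 0.702, 0.548 and 0.483 CPM in WT sham and at 1.15, 0.657, 0.641 and 0.687 CPM in WT MI. In KO sham it was at 0.781, 0.515, 0.747 and 0.642 CPM, and in KO MI at 0.959, 1.54, 1.05 and 2.58 CPM. The WT MI samples all lay inside the WT sham range, whereas the 4 KO MI samples lay above the 4 KO sham samples. Reads of H2-DMb1 and of its close copy H2-DMb2 may be split uncertainly by the authors' counting, and H2-DMb2 was at 0.183 to 1.01 CPM outside WT MI replicate 2, where it was at 0.0597 CPM. H2-DMa was at 1.04, 2.10, 2.28 and 1.84 CPM in WT sham and 2.22, 3.46, 1.46 and 2.06 CPM in WT MI. It was at 2.02, 1.397, 1.27 and 1.52 CPM in KO sham and 1.99, 3.02, 2.30 and 4.59 CPM in KO MI. In WT MI the highest sample was replicate 2, the sample that was lowest for H2-Aa and H2-Ab1, so the DM alpha subunit and the chains did not share their extremes there.

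Ciita, which encodes the coactivator, was at about the same level in every group. It averaged 1.57 ± 0.413 CPM in WT sham and 1.54 ± 0.703 in WT MI, against 1.56 ± 0.209 in KO sham and 1.46 ± 0.277 in KO MI (SD, n = 4 each), from 11 to 26 reads a sample. Its sample values ran from 0.657 CPM in WT MI replicate 2 to 2.15 CPM in WT MI replicate 4, and all groups overlapped. The log2 change after infarction averaged over genotypes was -0.08, with a 95% interval from -0.54 to 0.39, so a change of the size of that of Cd74 lies outside the interval.

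Cd86 was lowest in WT sham. Its values there were 0.519, 0.624, 0.457 and 0.677 CPM, from 5 to 8 reads, against 0.905, 1.25, 0.915 and 1.46 CPM in WT MI. In KO sham it was at 1.17, 0.956, 1.64 and 0.962 CPM, and in KO MI at 0.411, 0.842, 1.90 and 2.02 CPM. Each WT MI and each KO sham sample lay above the highest WT sham sample, while KO MI spanned the lowest and the highest values of the 16. Cd80, the other ligand of CD28, had at most 13 reads a sample. Of the 10 other costimulation genes listed, 4 could be tested, and Cd274, which encodes the inhibitory ligand PD-L1, fell by 1.30 on the log2 scale in KO after infarction (edgeR adjusted p 0.0149) while Cd40, Cd83 and Icosl were not called.

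Over the 16 samples, Cd74 and the 3 chains varied together. Their 6 pairs had Pearson correlations of log2 CPM from 0.84 to 0.93 and Spearman correlations from 0.79 to 0.95, and after subtracting group means the Pearson values were 0.73 to 0.91. H2-DMb1 followed them at 0.61 to 0.76, Cd86 at 0.40 to 0.53, H2-DMa at 0.32 to 0.51 and Ciita at 0.15 to 0.35. After subtracting group means H2-DMa was at -0.20 to 0.22 and Ciita at 0.41 to 0.63. These values describe 16 libraries that share the groups and the 3 libraries that stand apart, and H2-DMb1, Ciita and Cd86 had only 5 to 37 reads a sample.

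**Figure D3:**
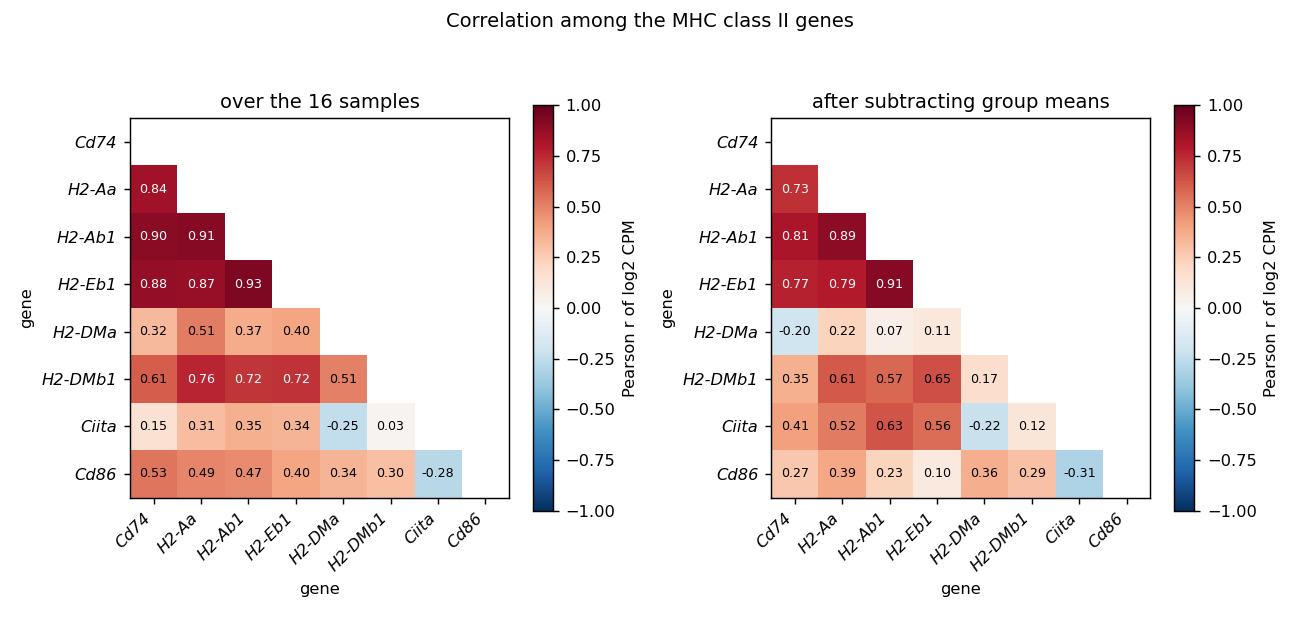
Pearson correlation of log2 CPM between each pair of the 8 genes (both axes), over the 16 samples on the left and after subtracting group means on the right; the colour runs from -1 (blue) to 1 (red). The block of Cd74, H2-Aa, H2-Ab1 and H2-Eb1 holds values of 0.84 to 0.93 on the left, where Ciita and H2-DMa have the lowest values with it (0.15 to 0.51); on the right H2-DMa is at -0.20 to 0.22 and Ciita at 0.41 to 0.63.

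Genes whose pattern was most like that of the members were then ranked. By the Pearson correlation with the members' mean standardised log2 CPM over 16 samples, among 11695 genes with at least 2 CPM, the first 6 were Lcp1 (0.90), Gbp2 (0.90), Cd63 (0.88), Ncf1 (0.88), Ptprc (0.88) and Cd53 (0.87). Their Spearman values were 0.73, 0.69, 0.85, 0.79, 0.67 and 0.80. Plek (0.89), Pros1 (0.88) and H2-T22 (0.86), lower by Pearson, were higher by Spearman. KO MI replicate 4 had a members' mean of 2.01, and the next sample, WT MI replicate 1, 0.86, so the Pearson ranking leans on that library. Lcp1 encodes the actin bundling protein plastin of leukocytes, Ncf1 a subunit of the phagocyte NADPH oxidase, and Ptprc the pan-leukocyte antigen CD45. Gbp2 encodes an interferon-inducible GTPase, and Cd63 and Cd53 encode tetraspanins. Cd53 averaged 1.77 ± 0.311 CPM in WT sham and 3.78 ± 0.880 in WT MI, against 2.48 ± 0.366 in KO sham and 5.17 ± 2.11 in KO MI (SD, n = 4). It rose in both genotypes after infarction, by log2 changes of 1.07 in WT and 1.06 in KO (edgeR adjusted p 0.0423 and 0.00785), and was the 1 gene of the 6 called in WT. In KO Lcp1, Cd63 and Ncf1 were also called, at 0.47, 0.29 and 0.63, while Gbp2 and Ptprc were not called in either genotype.

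Markers of cells that carry class II were counted beside these results. The 12 macrophage markers summed to 110 to 123 CPM in WT sham and 151 to 219 CPM in WT MI, against 143 to 155 CPM in KO sham and 172 to 385 CPM in KO MI. The 385 CPM was that of KO MI replicate 4, the library with the high lung markers, beside 172, 268 and 231 CPM in replicates 1 to 3. The marker calls below include that library. Of all genes, 8.54% were called higher after infarction in KO and 1.32% in WT. In KO 5 of 12 were called higher after infarction, among them Adgre1, Cd68 and Lyz2, and in WT 1 of 12, Adgre1 (log2 change 0.75, edgeR adjusted p 0.0425). WT MI replicate 2 had the highest macrophage sum of its group, 219 CPM, and the lowest H2-Aa and H2-Ab1 of all 16 samples. By the mean log2 CPM of the same 12 markers, replicate 1 was the highest of WT MI, at 3.37 against 3.11 in replicate 2. Replicate 1 was also the highest of WT MI for Cd74, H2-Aa, H2-Ab1 and H2-Eb1. Of 8 monocyte markers Ccr2, Plac8 and Chil3 were called higher in KO after infarction (1.73, 1.30 and 3.55) and Ace in WT (0.48). Of the dendritic cell markers Flt3 had at most 4 reads in any sample, and 4 of 7 tested markers were called higher in KO after infarction, Itgax, Clec10a, Batf3 and Irf8. None of the 7 was called after infarction in WT. In the interaction no macrophage or dendritic cell marker was called, while the monocyte markers Ly6c1 (-0.75) and Ace (-0.71) were. Averaged over genotypes, 7 of 12 macrophage, 5 of 8 monocyte and 3 of 7 dendritic cell markers were called higher after infarction, beside 6.89% of all genes. Of 7 tested B cell markers 1 was, Blnk. In KO none of these 7 was called after infarction and 4 had a negative log2 change (median -0.25). In WT none was called and 6 had a positive one (median 0.61). All 7 were negative in the interaction, and none was called there. After sham, Batf3 and Irf8 were lower in KO than in WT, by log2 differences of -1.28 and -0.47 (edgeR adjusted p 0.0321 and 0.0159). Batf3 averaged 0.858 CPM in WT sham, 0.346 in KO sham and 0.817 in KO MI, and Irf8 15.7, 11.3 and 17.6 CPM. Zbtb46, which endothelial cells also express, was at 8.41 to 13.2 CPM, was higher in KO sham than in WT sham by 0.48 (edgeR adjusted p 0.00593) and was not called after infarction in either genotype. The T cell gene Cd3e had at most 8 reads a sample and the thymic epithelium gene Foxn1 1 read in all. None of these marker lists was tested as a source of the class II RNA.

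Lung markers moved with the class II chains. After infarction all 7 tested lung markers had a positive log2 change in KO (median 1.09), and 5 of 7 did in WT (median 0.64). Averaged over genotypes all 7 were positive (median 0.86). Napsa alone was called in KO (1.22, edgeR adjusted p 0.0373), beside 8.54% of all genes called higher, and none was called in WT. The part of lung tissue in the class II changes after infarction was not tested. Over the 16 samples, Cd74, H2-Aa, H2-Ab1 and H2-Eb1 correlated with the mean log2 CPM of the lung epithelium markers at Pearson 0.68 to 0.80 and with the macrophage markers at 0.76 to 0.78. The Spearman values were 0.35 to 0.51 and 0.66 to 0.73. After subtracting group means the Pearson values were 0.68 to 0.86 with the lung markers and 0.37 to 0.58 with the macrophage markers. With the B cell index the same 4 genes had Pearson values of 0.14 to 0.40, and 0.05 to 0.41 after subtracting group means. Without the 3 libraries apart in lung markers, the Pearson correlations with the lung markers were 0.23 for Cd74, 0.29 for H2-Aa, 0.20 for H2-Ab1 and 0.49 for H2-Eb1 (n = 13), and the Spearman values -0.10, 0.14, -0.09 and -0.02. Sftpc, the surfactant gene of alveolar cells, was at 237 CPM in KO MI replicate 4, at 0 reads in WT sham replicate 2 and at 1.01 CPM in WT MI replicate 2.

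**Figure D4:**
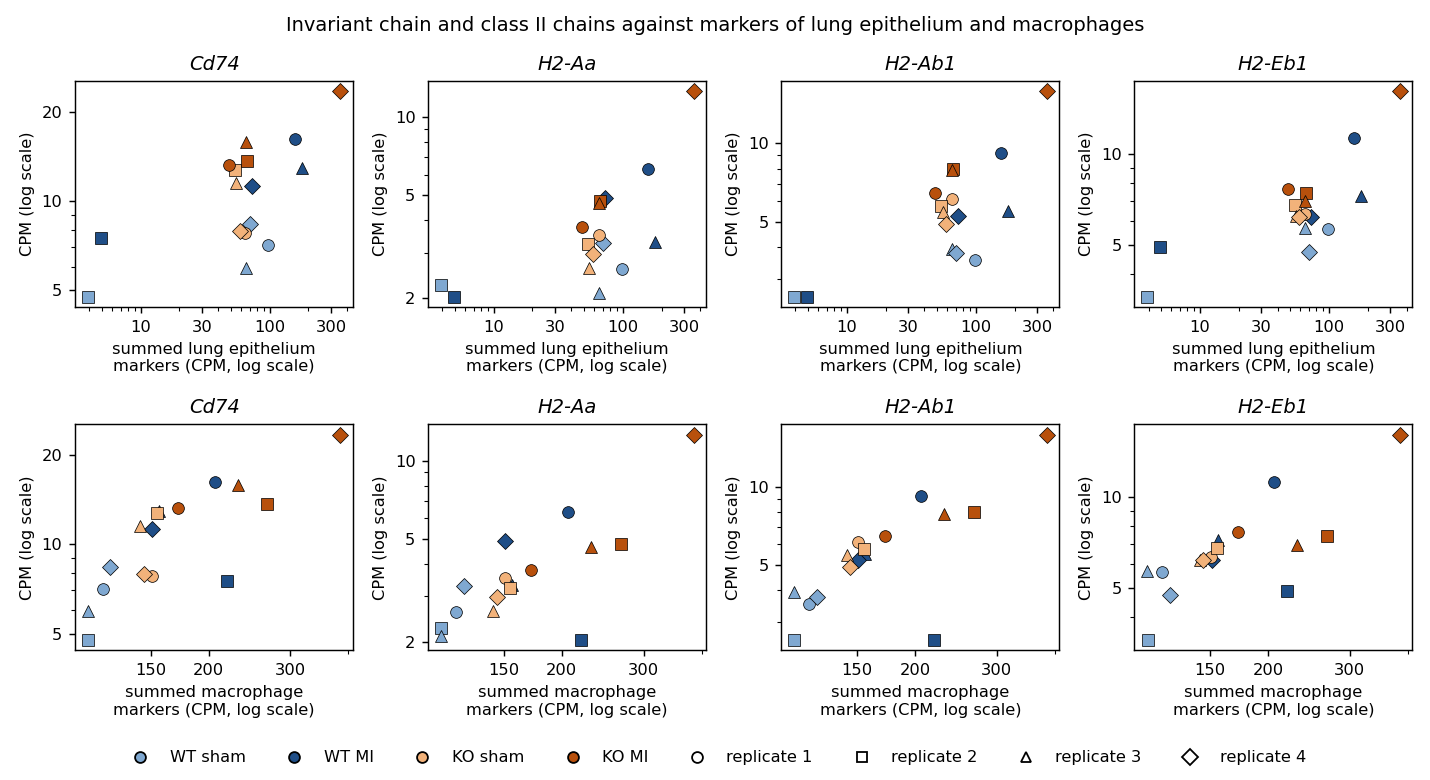
CPM of Cd74, H2-Aa, H2-Ab1 and H2-Eb1 (vertical axes, log scale) against the summed CPM of 10 lung epithelium markers (upper row) and 12 macrophage markers (lower row; horizontal axes, log scale). Each symbol is 1 of 16 samples, its colour the group and its shape the replicate number. WT sham replicate 2 and WT MI replicate 2 lie at the far left of the upper row, at 3.90 and 4.89 CPM, and KO MI replicate 4 at the far right at 355 CPM, and WT MI replicate 2 lies below the other samples of like macrophage sum in the lower row.

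The remaining genes of the class II pathway, a list of 20, were mostly not called or not tested. Of the 14 that could be tested, 3 rose in KO after infarction: Ctss, the protease that trims the invariant chain in antigen-presenting cells, by 1.85 (edgeR adjusted p 0.000747), Ifi30, a lysosomal thiol reductase, by 0.77 (edgeR adjusted p 0.000206), and Ctsl, a lysosomal protease, by 0.25 (edgeR adjusted p 0.0183), on the log2 scale. The 3 calls in KO stand beside 8.54% of all genes called higher. In KO 5 of the 14 had an unadjusted p under 0.05, beside 4207 of all 13412 genes. In WT none of the 14 was called and 2 had an unadjusted p under 0.05, beside 2007 of all genes. Ctss was at 1.13 in WT with an edgeR adjusted p of 0.0534. The median log2 change of the 14 was 0.06 in WT and -0.01 in KO, beside -0.01 and 0.01 over all genes. Ctss was at 11.2, 12.7, 10.5 and 9.38 CPM in WT sham and 31.4, 26.6, 12.4 and 25.2 CPM in WT MI. It was at 13.2, 14.2, 11.9 and 10.3 CPM in KO sham and 28.4, 54.4, 30.3 and 66.1 CPM in KO MI. Its KO groups did not overlap, and in WT only the infarcted replicate 3 fell inside the sham range.

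Ifi30 was the 1 gene of the list with a different response between genotypes. Its interaction was 0.61 ± 0.15 (edgeR adjusted p 0.0358). It averaged 11.6 ± 1.07 CPM in WT sham and 12.9 ± 1.01 in WT MI, against 10.2 ± 0.522 in KO sham and 17.4 ± 1.72 in KO MI (SD, n = 4), and the lowest KO MI sample, at 15.1 CPM, lay above every sample of the other 3 groups. Marchf8, a ubiquitin ligase of membrane proteins, was higher in KO sham than in WT sham by 0.47 (edgeR adjusted p 0.0193). Rfx5, the DNA-binding subunit of RFX, was at 11.6 ± 1.56, 10.9 ± 1.81, 13.8 ± 1.08 and 12.5 ± 1.30 CPM from WT sham to KO MI in the order of groups used above, and was not called in any comparison. The DO subunits were near the floor, with at most 3 reads a sample for H2-Oa and 13 for H2-Ob.

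For comparison, of the 15 genes of the class I pathway, which presents peptides to CD8+ T cells, 5 rose in KO after infarction: B2m, H2-K1, H2-D1, Psmb10 and Psme2, by 0.68, 0.77, 0.59, 0.43 and 0.26 on the log2 scale. H2-K1 and H2-D1 have close copies between which the counting could split reads. The 5 calls in KO stand beside 8.54% of all genes called higher. None of the 15 was called in WT, where 2 had an unadjusted p under 0.05 and 2.25% of all genes were called. In the interaction none of the 15 was called either, where 4 had an unadjusted p under 0.05 and 2.74% of all genes were called. The median class I change in KO was 0.26, beside 0.75 for the 8 class II members. In the interferon gamma axis, the inducer of Ciita, Ifng had 5 reads over all 16 samples, and 0 of 11 tested genes were called after infarction in either genotype by edgeR, with 1 at an unadjusted p under 0.05 in WT and 2 in KO. Over all 13412 genes, 2007 in WT and 4207 in KO had an unadjusted p under 0.05. Irf1, a transcription factor downstream of interferon gamma, was higher in KO sham than in WT sham by 0.42 (edgeR adjusted p 0.0152).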

How the data were processed

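The authors deposited raw counts, the number of reads per Ensembl gene in each of the 16 samples. The submitters' processing notes name HISAT2 2.2.1, HTSeq 0.13.5, cutadapt 3.4, bcl2fastq 2.17, DESeq2, FastQC and build GRCm39, in no stated order; strand setting and annotation release are not given in the sources used here. Reads of no feature made up 23.7 to 28.2% of each library and ambiguous reads 1.56 to 2.08%, and both were left out. Groups came from the labels.

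The counts were fitted in R 4.3.3 with edgeR 4.0.16 (TMM, filterByExpr on the 4 groups, 13412 genes, a mean per group, robust quasi-likelihood test, 12 residual degrees of freedom, two-sided). Adjusted p-values are Benjamini-Hochberg values over those 13412 genes, and a gene with one under 0.05 was called. Levels are TMM-scaled CPM; log2 CPM used a prior count of 2; exon lengths came from GENCODE vM21 (GRCm38), an older build. DESeq2 1.42.0 and limma 3.58.1 were alternatives. The test was checked on simulated counts. No 2 replicates agreed within sampling noise (chi-square per degree of freedom at least 3.88).

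The members and the 12 other gene lists were chosen with earlier results of these data known. Named were the 8 members, up to 4 genes of each list with the smallest p in any of the 6 comparisons, defining cell markers, paralogues and partners of members, and the 6 genes most like the members; Ighm, Batf3, Mrc1, Lyve1, Plac8, H2-K1, Psme2, Rfx5, Cd80 and Myh6 were added after their values were seen. The alternatives that leave out the 3 libraries apart in lung markers or add a lung or B cell index were also chosen after seeing the data.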

Additional observations from a re-analysis of the deposited data

Results flagged for a closer look

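In groups of 4 samples, 36 sets of values were tested for 1 sample far from the others (the gap to the nearest value, divided by the whole range, above Dixon's 95% critical value), and 5 were found; chance gives about 1 in 20 groups. In KO MI the highest library, replicate 4, lay far above the next for H2-Aa (12.6 against 4.77 CPM), H2-Ab1 (15.9 against 7.999 CPM) and H2-Eb1 (16.2 against 7.67 CPM). The same library was far above the next in the summed lung epithelium markers, at 355 against 66.5 CPM. In WT MI, replicate 1 lay far above the next for H2-DMb1, at 1.15 against 0.687 CPM.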

How the results depend on the processing

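Low counts (5 to 37 reads for H2-DMb1) and 4 samples a group limit these tests, and the settings below that end a call in part test fewer samples; the cause of the other shifts was not tested. The count of members called after infarction in WT, 0, was 1 with DESeq2, limma voom or the lung index and 3 without the 3 libraries apart in lung markers, and 0 to 1 with 1 library left out. In KO the count of 4 was 2 with no filter, 2 when only genes with 50 or more counts on average were tested (4 of the 8), 2 without the 3 libraries lowest in Y-linked genes, 1 without those apart in lung markers and 0 with the B cell index, and 0 to 5 with 1 library left out. After sham, 0 became 1 with voom, 3 in the fit of 8 samples and 1 without the libraries apart in lung markers. Averaged, 4 became 1 with no filter or without the libraries lowest in Y-linked genes, and 1 to 5 with 1 library left out. Between genotypes after infarction and in the interaction the count stayed 0 in every setting run.

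The replicate numbers did not pair the samples: the correlations of same-numbered deviations ran from -0.10 to 0.48, and 6 of 16 samples correlated best with their own number. With a replicate block 3 members were called in KO, without Cd74 (0.69, edgeR adjusted p 0.0547), and the other counts were unchanged. CPM with unscaled library totals moved each group mean by at most 3.13%.

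Over all genes, 302 calls in WT became 511 with DESeq2, 495 with voom, 185 in the fit of 8 samples, 166 without the libraries lowest in Y-linked genes, 558 without those apart in lung markers, 506 with the lung index and 86 to 385 with 1 library left out. In KO 2220 became 4796 with voom, 1291, 3958 and, with the B cell index, 731, and 1230 to 2931 with 1 left out. After sham 2057 became 3901 with voom, 3211 in the fit of 8, 1237 without the libraries lowest in Y-linked genes and, with the B cell index, 257 (80 higher, 177 lower, against 1019 and 1038), and 1298 to 2077 with 1 left out. After infarction 2 became 1 to 11. The interaction's 368 became 46 to 1524, and the averaged 1811 became 1012 to 3284; with upper quartile scaling the averaged calls split into 1133 higher and 687 lower, against 924 and 887.

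Some values that were not called changed sign, on the log2 scale. With voom these were Cd86 in KO (-0.17), H2-DMb1 after sham (0.023), H2-Eb1 (-0.013) and Cd86 (-0.068) between genotypes after infarction, and the interaction of H2-Aa (-0.25) and H2-Ab1 (-0.23). Without the libraries apart in lung markers they were Ciita in WT (0.092), Cd86 in KO (-0.15), H2-Aa (-0.14), H2-Eb1 (-0.17) and Cd86 (-0.042) between genotypes after infarction, and the interaction of H2-Aa (-0.37) and H2-Ab1 (-0.42). Without the libraries lowest in Y-linked genes they were H2-DMb1 after sham (0.31) and the interaction of Cd74 (0.049) and H2-Eb1 (0.017). With the lung index H2-DMb1 in WT was -0.057 and the interaction of Ciita 0.025. With the B cell index Ciita (0.13) and Cd86 (-0.068) in KO, H2-DMa (0.77) and H2-DMb1 (0.32) after sham, Ciita (0.071) between genotypes after infarction and the interaction of Cd74 (0.38), H2-DMa (-0.64) and Ciita (0.47) turned. Ciita after sham was 0.0093 without haemoglobin and mitochondrial genes.

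With 1 library left out, ranges that crossed 0 were -0.17 to 0.41 for H2-DMb1 and -0.27 to 0.23 for Ciita in WT, -0.20 to 0.016 for Ciita and -0.17 to 0.42 for Cd86 in KO, -0.28 to 0.20 for H2-DMb1 and -0.16 to 0.16 for Ciita after sham, and -0.33 to 0.17 for Ciita and -0.11 to 0.48 for Cd86 between genotypes after infarction. In the interaction they were -0.35 to 0.049 for Cd74, -0.17 to 0.67 for H2-Aa, -0.27 to 0.45 for H2-Ab1, -0.40 to 0.26 for H2-Eb1 and -0.32 to 0.18 for Ciita, and averaged -0.18 to 0.065 for Ciita.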
